A study of Mus musculus with 6 samples.

Results

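The genes described here encode the enzymes that build, lengthen and desaturate fatty acids in HL-1 cells. They were chosen by name, as the rows of the deposited count table whose symbol was Acaca, Fasn, Elovl1, Elovl5, Elovl6, Scd1, Scd2, Fads1, Fads2 or Fads3, which gave 10 genes of the 49492 in the table. Acetyl-CoA carboxylase makes malonyl-CoA, and fatty acid synthase uses it to assemble palmitate, a saturated chain. Elongases of the endoplasmic reticulum lengthen such chains, and stearoyl-CoA desaturases place the first double bond in saturated chains. The front-end desaturases encoded by Fads1 and Fads2 add further double bonds to polyunsaturated chains. In cells given palmitate, elongation and desaturation are the steps that turn the saturated chain into oleate, which is stored as triglyceride and is better tolerated.

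Total RNA was taken from HL-1, a cell line of mouse atrial origin, in 2 groups of 3 libraries. The ZNF593-AS group was transfected to overexpress ZNF593-AS, a long noncoding RNA, and the vector group received the vector alone. Both groups were kept under palmitic acid, and none of the 6 libraries was without it, so no value here measures the effect of the fatty acid itself. All 3 treated libraries carry ZNF593-AS in their titles. In the treatment field, however, replicate 2 has ZNF594-AS and replicate 3 has ZNF595-AS. Titles decided the grouping. For the chosen genes and the called genes of related pathways, results are also given for ZNF593-AS replicate 1 alone against vector where that changed a call. For the other genes named below, among them neighbours, cell type markers and genes that followed Scd2, that setting was not examined. The labels give neither the dose and time of palmitic acid nor whether replicates were separate cultures, so p-values measure the spread between these libraries, which may be technical.

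Gene counts summed to between 61042914 and 84547615 in ZNF593-AS libraries and between 51470457 and 73529088 in vector libraries. The 10 genes together held between 34030 and 47212 counts in ZNF593-AS libraries and between 22507 and 37221 in vector libraries, and every one of them passed the filter on low counts. Of 10 cardiomyocyte markers 3 averaged 1 or more CPM, the count per 1e+06 of scaled library size, namely Tnnt2, Gata4 and Des, while the atrial peptide gene Nppa had no count in any library. Myh6, the alpha myosin heavy chain gene, averaged 0.0369 ± 0.0279 CPM in ZNF593-AS libraries and 0.178 ± 0.139 CPM in vector libraries (SD, n = 3 each). The 10 markers summed to between 648 and 712 CPM in ZNF593-AS libraries and between 539 and 615 CPM in vector libraries, mostly from Des, the desmin gene, which rose. The level of ZNF593-AS itself was not analysed here, so the labels have no check of that kind.

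With ZNF593-AS, 2 of the 10 genes rose and none fell. They were Scd2, a stearoyl-CoA desaturase, at 1.43-fold, and Elovl6, the elongase that acts on palmitate, at 1.30-fold. A gene was said to rise or fall when its adjusted p from edgeR's quasi-likelihood test, with Benjamini-Hochberg adjustment over all 16473 genes tested, was below 0.05. By the same rule 2.23% of all tested genes rose (368) and 6.16% fell (1015), 8.4% in all, a split that became 1284 and 811 with library totals in place of the TMM scaling factors. The other 8 genes, among them both enzymes of palmitate synthesis and all 3 Fads genes, did not pass. The median log2 fold change was 0.11 over the 10 genes and 0.01 over all genes tested. In 3 of the 10 genes, Scd2, Elovl6 and Fads1, every ZNF593-AS library was above every vector library, against 12.4% of all tested genes, and in none was every one below, against 13.4%.

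Levels differed widely between the genes. In this comparison values of different genes are set side by side as CPM divided by the exon length given in the deposited table. Sums over genes, and the counts of Cdc20 beside those of Elovl1, are not scaled by length. Fads2 was the highest, at 44.2 ± 3.74 CPM per kb in ZNF593-AS libraries and 41.3 ± 4.92 CPM per kb in vector libraries (SD, n = 3 each). Scd1 followed with 28.1 ± 1.92 and 25.9 ± 4.62 CPM per kb, then Fads3 with 21.4 ± 1.19 and 21.3 ± 0.553 CPM per kb, in ZNF593-AS and in vector libraries. Scd1 and Fads3 overlapped among the vector libraries, because Scd1 was low in vector replicate 2. Below them stood Fads1 with 17.0 ± 0.620 CPM per kb in ZNF593-AS libraries and 15.3 ± 0.841 in vector libraries, and Scd2 with 13.0 ± 0.575 and 9.14 ± 0.964. Elovl5 came next with 7.59 ± 0.283 and 7.54 ± 0.394 CPM per kb, and Elovl6 with 4.14 ± 0.237 and 3.19 ± 0.172, again in ZNF593-AS and in vector libraries. From Fads1 to Elovl6 no neighbours overlapped in either group. The lowest levels belonged to the first enzymes of the pathway and to Elovl1: Acaca had 2.42 ± 0.0970 CPM per kb in ZNF593-AS libraries and 2.37 ± 0.163 CPM per kb in vector libraries. Fasn and Elovl1 overlapped in both groups. The exon length used was 1508 bases for Fads2, 3456 for Fads1 and 3269 for Fads3, against 3295, 4812 and 3792 in the GENCODE M21 annotation. That of Acaca was 17074 bases over many transcripts. The places of these genes in the order therefore depend on which exons were counted.

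**Figure D1:**
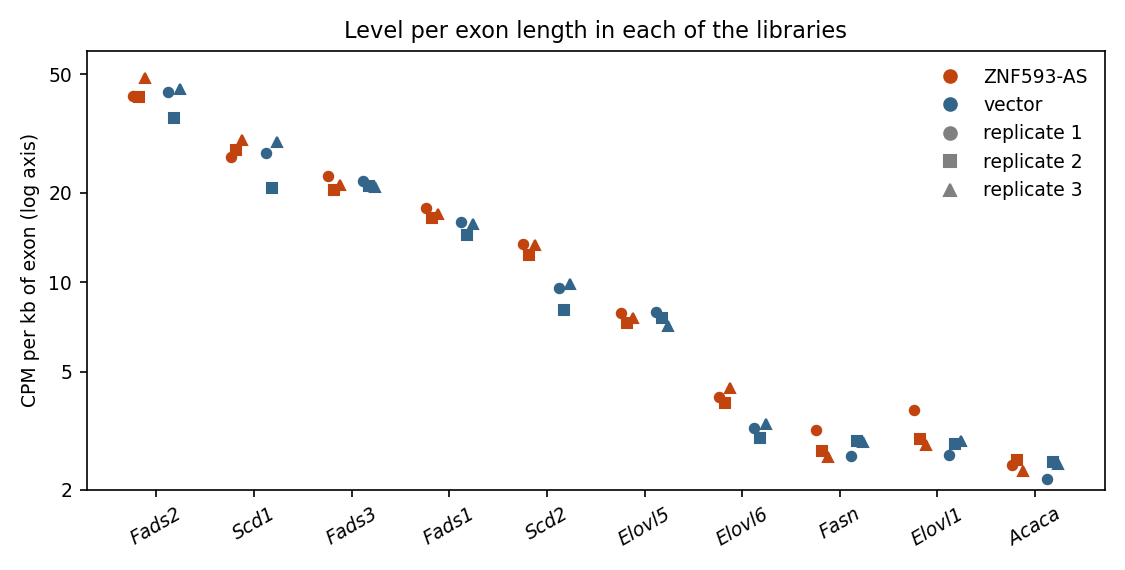
Level of each gene as CPM per kb of exon on a log axis, ordered by the vector mean; each point is a library, ZNF593-AS in orange to the left of vector in blue. Group means run from 44.2 and 41.3 CPM per kb for Fads2 to 2.42 and 2.37 for Acaca, in ZNF593-AS and in vector libraries, and the groups separate for Scd2, Elovl6 and Fads1.

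The enzymes that make palmitate showed no detectable difference. Acaca, which encodes acetyl-CoA carboxylase 1, the committed step of synthesis, lies on GRCm38 chromosome 11 from 84129672 to 84401651. It stood at 41.6, 43.0 and 39.7 CPM in ZNF593-AS replicates 1 to 3 and at 37.2, 42.2 and 41.8 CPM in vector replicates 1 to 3. The groups overlapped, and the log2 fold change was 0.03 ± 0.07 (SE, edgeR adjusted p = 0.841) with a 95% interval of -0.11 to 0.18. Of the 50-base stretches of Acaca transcripts, 30.4% also occur in transcripts of other genes, so its level is uncertain. Nearly all of these shared stretches occur in Gm5182, which had no entry under that name among the genes counted. Fasn, the fatty acid synthase gene on the same chromosome from 120805846 to 120824547, shares none. Fasn stood at 34.9, 29.6 and 28.2 CPM in ZNF593-AS replicates 1 to 3 and at 28.5, 32.1 and 31.8 CPM in vector replicates 1 to 3. ZNF593-AS replicate 1 was the highest of the 6 libraries and the other ZNF593-AS libraries lay within or below the vector range (log2 fold change 0.01 ± 0.08 SE, 95% interval -0.17 to 0.18, edgeR adjusted p = 0.974). In linear terms the intervals reached from 0.926-fold to 1.13-fold for Acaca and from 0.891-fold to 1.14-fold for Fasn.

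Among the elongases Elovl6 rose. It encodes the enzyme that adds a 2-carbon unit to palmitate to give stearate, and lies on chromosome 3 from 129532355 to 129638495. Elovl6 stood at 26.4, 25.2 and 28.2 CPM in ZNF593-AS replicates 1 to 3, against 20.8, 19.3 and 21.4 CPM in vector replicates 1 to 3. All ZNF593-AS libraries were above all vector libraries, and the log2 fold change was 0.38 ± 0.07 (SE, edgeR adjusted p = 0.0024). Its call did not hold with ZNF593-AS replicate 1 alone, where the log2 fold change was 0.37 and edgeR's adjusted p was 0.0625. Of its 50-base stretches 3.98% occur in another gene, mostly in Gm11295, which had no counts. Elovl5, which elongates polyunsaturated chains, did not pass and had nearly equal means, 26.7 ± 0.997 CPM in ZNF593-AS libraries and 26.6 ± 1.39 CPM in vector libraries (SD, n = 3 each). Its 95% interval on the log2 scale ran from -0.14 to 0.15, below the whole interval of Elovl6, which ran from 0.22 to 0.53. Elovl1, which elongates saturated and monounsaturated very long chains, stood at 10.2, 8.11 and 7.72 CPM in ZNF593-AS replicates 1 to 3 and at 7.17, 7.78 and 7.97 CPM in vector replicates 1 to 3. The groups overlapped, with ZNF593-AS replicate 1 apart from the rest (log2 fold change 0.18 ± 0.11 SE, edgeR adjusted p = 0.378). Without that library the log2 fold change was 0.05. Elovl1 shares 53 exon bases with Cdc20 on the opposite strand, a gene with 332.1% of its counts, so reads at that end cannot be assigned with certainty.

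The promoters of Elovl6, which rose, and of Elovl5, which did not pass, are shown as the contrast among the elongases. Both are RefSeq windows of the build GRCm38.p6, from 250 bases before to 50 after the annotated start, at chr3:129532136-129532435 and chr9:77917115-77917414 on the plus strand. Capitals mark matches on either strand to any of 4 motifs: CCAAT, the box bound by NF-Y; CACGTG, an E box; GGGCGG, a GC box; and TCACNCCAC, a form of the sterol regulatory element bound by SREBP.
Elovl6: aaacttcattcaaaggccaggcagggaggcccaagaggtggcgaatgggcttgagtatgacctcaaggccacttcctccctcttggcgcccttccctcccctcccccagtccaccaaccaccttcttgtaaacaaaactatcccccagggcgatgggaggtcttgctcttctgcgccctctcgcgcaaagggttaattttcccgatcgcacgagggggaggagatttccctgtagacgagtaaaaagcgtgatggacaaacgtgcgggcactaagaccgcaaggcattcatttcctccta
Elovl5: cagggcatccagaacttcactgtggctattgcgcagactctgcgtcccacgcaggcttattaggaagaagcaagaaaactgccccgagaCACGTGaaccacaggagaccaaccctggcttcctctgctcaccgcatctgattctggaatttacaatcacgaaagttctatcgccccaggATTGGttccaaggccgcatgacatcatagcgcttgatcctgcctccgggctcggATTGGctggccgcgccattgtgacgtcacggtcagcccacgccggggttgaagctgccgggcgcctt
The Elovl6 window held none of the 4 motifs and is printed without capitals. The window of Acaca, which did not pass, held none of them either. The Elovl5 window held 2 CCAAT boxes and 1 E box, with no match overlapping another. Of all 32851 promoter windows in the table, 37.4% held a CCAAT box, 7.15% this E box, 35.7% a GC box and 1.24% this sterol element. Fasn, whose window held 3 CCAAT boxes, and the other members with a window, Acaca, Elovl1, Fads2 and Fads3, also lacked the sterol element in these letters. The Acaca window, at chr11:84195188-84195487, lies inside the gene as counted, which starts at 84129672. The sequence at that start was not examined. The windows matched 7 of the 10 genes. Scd1, Scd2 and Fads1 had no window, so no promoter of Scd2, which also rose, was examined.

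Among the stearoyl-CoA desaturases Scd2 rose, with the largest log2 fold change of the 10 genes. Scd2, on chromosome 19 from 44293676 to 44306864, encodes an isoform widely expressed outside the liver. It stood at 73.3, 67.5 and 72.5 CPM in ZNF593-AS replicates 1 to 3, against 52.2, 43.8 and 53.5 CPM in vector replicates 1 to 3. Every ZNF593-AS library was above every vector library. The log2 fold change was 0.51 ± 0.07 (SE, edgeR adjusted p = 0.000147), which placed Scd2 at rank 98 by size among the 368 genes that rose. Mir5114, a microRNA gene whose 61 bases lie inside a Scd2 exon on the same strand, rose as well, at 2.72 CPM in ZNF593-AS libraries and 1.72 CPM in vector libraries (log2 fold change 0.65 ± 0.17 SE, edgeR adjusted p = 0.0201). Reads there cannot be told apart from those of Scd2.

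Scd1, the main isoform of liver and fat, lies on the same chromosome from 44394451 to 44407709 on the opposite strand. It stood at 127, 135 and 145 CPM in ZNF593-AS replicates 1 to 3 and at 131, 100.3 and 144 CPM in vector replicates 1 to 3. The groups overlapped except for vector replicate 2, which was below all others (log2 fold change 0.12 ± 0.11 SE, 95% interval -0.13 to 0.36, edgeR adjusted p = 0.624). Without vector replicate 2 its log2 fold change was -0.02.

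The coding sequences of Scd2 and Scd1 are 90.4% identical over 1068 aligned bases, so the stretch where reads are hardest to assign is shown. It holds their longest run of identical bases, 147 long, with 24 bases on each side, at coding positions 508 to 702 of Scd2 and 499 to 693 of Scd1, from GENCODE M21. Capitals mark the 2 bases that differ.
Scd2: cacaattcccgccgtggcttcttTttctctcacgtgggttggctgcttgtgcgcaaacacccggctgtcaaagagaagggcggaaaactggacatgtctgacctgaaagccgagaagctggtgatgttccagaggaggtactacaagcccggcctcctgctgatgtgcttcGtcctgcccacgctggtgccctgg
Scd1: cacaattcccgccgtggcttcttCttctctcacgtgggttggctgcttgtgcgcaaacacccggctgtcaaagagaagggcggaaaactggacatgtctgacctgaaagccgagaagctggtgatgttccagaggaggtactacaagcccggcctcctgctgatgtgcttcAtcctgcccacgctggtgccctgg
Outside such stretches the transcripts diverge. Of all 50-base stretches, 3.97% of those of Scd2 and 4.56% of those of Scd1 occur in another gene, mostly in each other and in Scd3. Scd3, a skin isoform, and Scd4 had counts of at most 26 and 3 in any library.

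**Figure D2:**
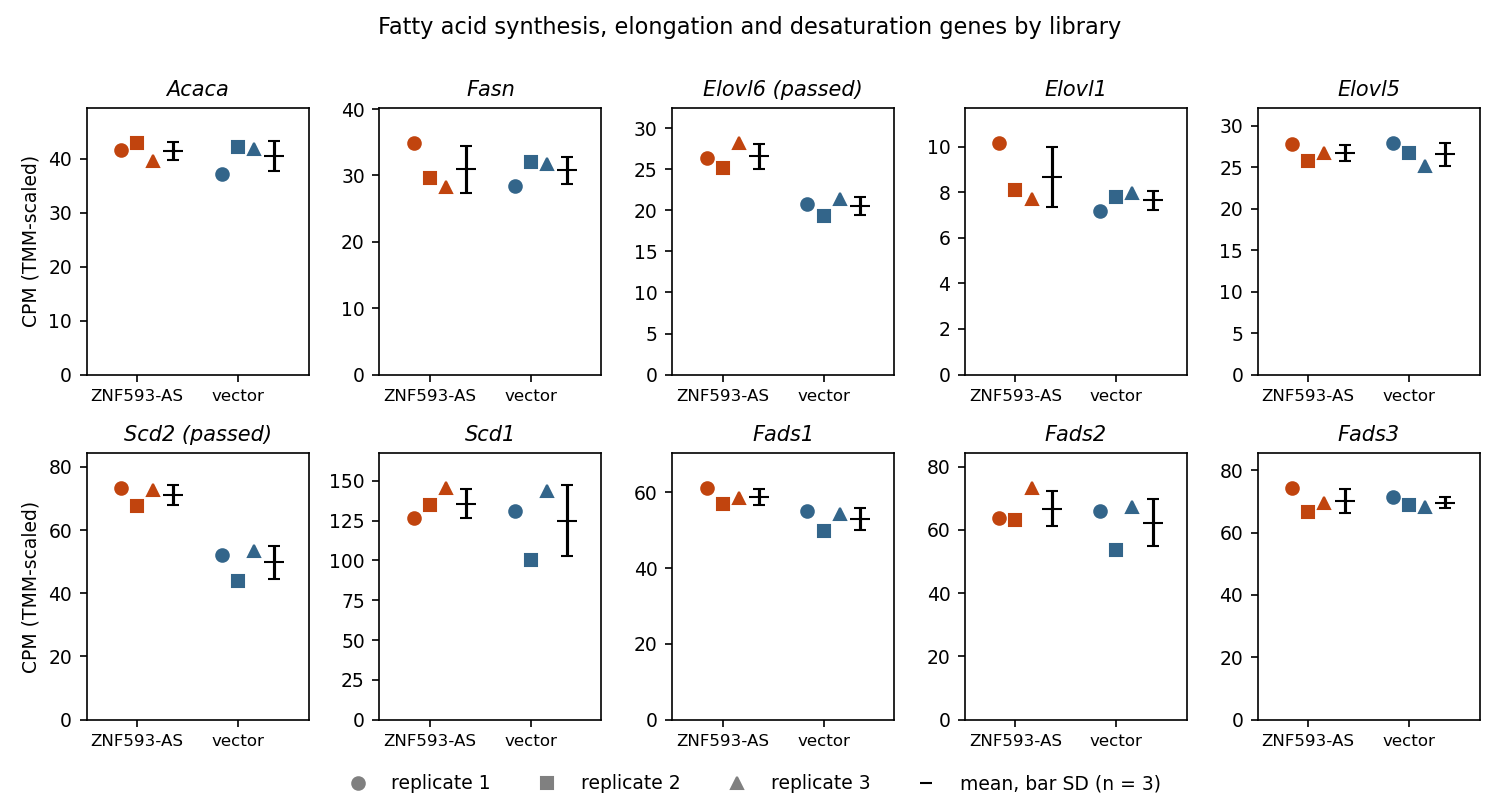
CPM of each gene in each library, with the mean and SD over 3 libraries beside each group; axes start at 0. Scd2 and Elovl6 show all 3 ZNF593-AS libraries above all 3 vector libraries, while Fasn, Acaca, Elovl5 and Fads3 overlap.

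The balance between related enzymes within a library does not depend on library scaling, and it was compared for 3 pairs as the ratio of counts per kb. Scd2 relative to Scd1 stood at 0.512, 0.444 and 0.442 in ZNF593-AS replicates 1 to 3, against 0.353, 0.388 and 0.330 in vector replicates 1 to 3. The mean log2 ratio was -1.10 ± 0.12 in ZNF593-AS libraries and -1.49 ± 0.12 in vector libraries (SD, n = 3 each), a difference of 0.38. The groups did not overlap, and the 2-sided exact permutation p was 0.1 (0.15 adjusted over the 3 pairs), where 0.1 is the smallest that 3 libraries against 3 can give. Elovl6 relative to Elovl5 stood at 0.522, 0.536 and 0.579 in ZNF593-AS replicates 1 to 3, against 0.407, 0.396 and 0.467 in vector replicates 1 to 3. The difference in mean log2 ratio was 0.37, again without overlap (exact permutation p = 0.1, 0.15 adjusted). Fads1 relative to Fads2 overlapped between the groups, with a difference of 0.05 and an exact permutation p of 0.8. Both ratios without overlap contain a gene that rose, so they are not independent of its own test.

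**Figure D3:**
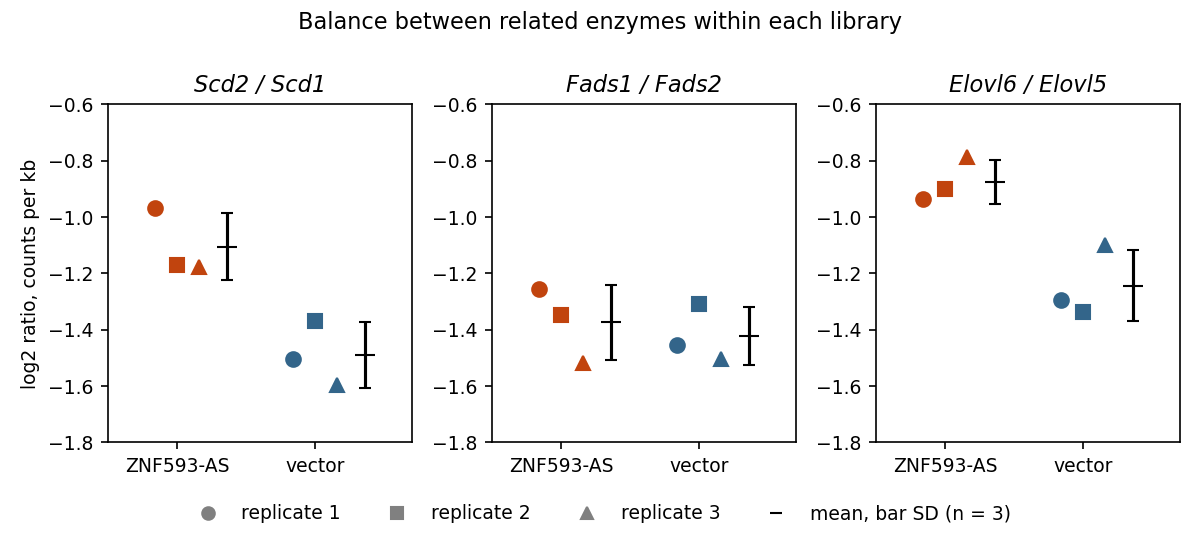
log2 ratio of counts per kb of exon for 3 pairs of related enzymes in each library, with mean and SD over 3 libraries. Scd2 over Scd1 and Elovl6 over Elovl5 lie higher in all ZNF593-AS libraries than in any vector library, and Fads1 over Fads2 overlaps.

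The Fads genes lie together on chromosome 19, Fads3 from 10041548 to 10059671, Fads2 from 10064164 to 10101503 and Fads1 from 10182888 to 10196870. None of the 3 passed. Fads1, the delta-5 desaturase, came nearest, at 61.1, 56.9 and 58.6 CPM in ZNF593-AS replicates 1 to 3 and 55.1, 49.7 and 54.2 CPM in vector replicates 1 to 3. The groups did not overlap, but the log2 fold change of 0.15 ± 0.06 (SE) had an edgeR adjusted p of 0.188. Fads1 passed when library totals replaced the scaling factors (log2 fold change 0.24, adjusted p = 0.0233), a setting that moved the median of all genes upward by 0.09. Fads2, the delta-6 desaturase, stood at 63.7, 63.1 and 73.2 CPM in ZNF593-AS replicates 1 to 3 and at 65.9, 53.7 and 67.1 CPM in vector replicates 1 to 3, with overlap (0.10 ± 0.08, edgeR adjusted p = 0.575). Leaving out ZNF593-AS replicate 3 gave a log2 fold change of 0.029, and leaving out vector replicate 2 gave 0.0037. Fads3, which has been described as a sphingoid base desaturase, had means of 70.1 ± 3.89 CPM in ZNF593-AS libraries and 69.5 ± 1.81 CPM in vector libraries (SD, n = 3 each), and its 95% interval on the log2 scale ran from -0.12 to 0.14. The coding sequences of Fads2 and Fads3 are 71.1% identical and those of Fads1 and Fads2 67.8%, but few longer runs are shared: 0.152% of the 50-base stretches of Fads2, 0.127% of those of Fads3 and none of Fads1 occur in another gene.

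The spread within a group differed from gene to gene. Vector replicate 2 was the lowest of its group in 5 of the 10 genes, Scd1, Scd2, Fads1, Fads2 and Elovl6, and in 35.5% of all tested genes. Vector replicate 3 was the highest in 5 of the 10, Scd1, Scd2, Fads2, Elovl1 and Elovl6, and in 34.5% of all tested genes. The coefficient of variation of Scd1 was 6.85% over ZNF593-AS libraries and 17.9% over vector libraries, that of Scd2 was 4.41% over ZNF593-AS libraries and 10.5% over vector libraries, and that of Fads2 was 8.45% over ZNF593-AS libraries and 11.9% over vector libraries. It was larger with ZNF593-AS for Elovl1, at 15.1% over ZNF593-AS libraries and 5.49% over vector libraries, for Fasn, at 11.4% over ZNF593-AS libraries and 6.52% over vector libraries, and for Fads3, at 5.55% over ZNF593-AS libraries and 2.6% over vector libraries. Without vector replicate 2 Scd2 and Elovl6 both still passed, with log2 fold changes of 0.43 and 0.33. The summed CPM of the 10 genes was 537 ± 14.9 in ZNF593-AS libraries and 486 ± 36.6 in vector libraries (SD, n = 3 each). These sums did not overlap, at 520 to 550 CPM in ZNF593-AS libraries and 444 to 515 CPM in vector libraries. Without Scd2 and Elovl6 the sums overlapped, at 428 to 449 CPM in ZNF593-AS libraries and 381 to 439.8 CPM in vector libraries. Scd2 and Elovl6 were left out because they rose, so a smaller difference was fixed in advance.

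Of 15 other desaturases, elongases and enzymes of the elongation cycle, 10 were tested and none passed. At an unadjusted p under 0.05 in edgeR 2 were higher and none lower, where 9.18% of all tested genes were higher and 11.2% lower at that threshold. The member with the smallest p was Hacd1, a dehydratase of the cycle, at 6.82 ± 0.373 CPM in ZNF593-AS libraries and 5.37 ± 0.437 CPM in vector libraries (log2 fold change 0.34 ± 0.10 SE, edgeR adjusted p = 0.0535). Elovl2, Elovl3, Elovl7, Fads6 and Scd4 were too low to test. The median log2 fold change of the tested genes was 0.08.

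Of 8 genes that supply acetyl-CoA and NADPH, 1 rose and none fell, where 2.23% of all tested genes rose and 6.16% fell. Idh1, the cytosolic isocitrate dehydrogenase, which yields NADPH, stood at 30.9, 31.3 and 37.1 CPM in ZNF593-AS replicates 1 to 3, against 23.4, 23.98 and 26.1 CPM in vector replicates 1 to 3. The groups did not overlap (log2 fold change 0.43 ± 0.08 SE, edgeR adjusted p = 0.00146), though with ZNF593-AS replicate 1 alone the adjusted p was 0.0927. The median of the 8 genes was 0.05, with 4 values above 0 and 4 below. Acly, which makes cytosolic acetyl-CoA from citrate, averaged 37.5 ± 2.64 CPM in ZNF593-AS libraries and 38.3 ± 1.12 CPM in vector libraries (SD, n = 3 each).

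Mitochondrial fatty acid synthesis, a separate pathway that makes the precursor of lipoate, had 6 tested genes, and none passed edgeR. At an unadjusted p under 0.05, 2 of the 6 were higher and none lower, against the same 9.18% and 11.2% of all tested genes. Ndufab1, the acyl carrier protein, had the smallest p, at 51.4 ± 1.997 CPM in ZNF593-AS libraries and 46.0 ± 1.07 CPM in vector libraries (log2 fold change 0.16 ± 0.06 SE, edgeR adjusted p = 0.143).

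Of 21 regulators of the pathway 18 were tested, 2 rose and none fell, where 2.23% of all tested genes rose and 6.16% fell. The median log2 fold change of the tested regulators was -0.01, with 7 values above 0 and 11 below. Insig2, an endoplasmic reticulum protein that holds back SREBP processing, stood at 31.0, 30.6 and 29.9 CPM in ZNF593-AS replicates 1 to 3, against 25.8, 26.7 and 25.4 CPM in vector replicates 1 to 3. Its log2 fold change was 0.23 ± 0.06 (SE, edgeR adjusted p = 0.0316), and the call ended when any single library other than vector replicate 2 was left out, and with ZNF593-AS replicate 1 alone (0.26, adjusted p = 0.294). Pparg, a nuclear receptor for fatty acids, averaged 10.1 ± 0.420 CPM in ZNF593-AS libraries and 8.23 ± 0.125 CPM in vector libraries (0.29 ± 0.09, edgeR adjusted p = 0.0462), a call that ended when any single library was left out, and with ZNF593-AS replicate 1 alone (0.24, adjusted p = 0.603). Srebf1, which encodes the transcription factor that drives these enzymes in liver, averaged 5.49 ± 0.128 CPM in ZNF593-AS libraries and 5.51 ± 0.288 CPM in vector libraries (-0.01 ± 0.10, edgeR adjusted p = 0.975). Srebf2, its relative in sterol synthesis, averaged 47.7 ± 1.25 and 47.4 ± 0.578 CPM in ZNF593-AS and in vector libraries. The counts measure mRNA and not the cleavage that activates these factors. Mlxipl, the carbohydrate response factor, Thrsp and Ppara were too low to test.

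**Figure D4:**
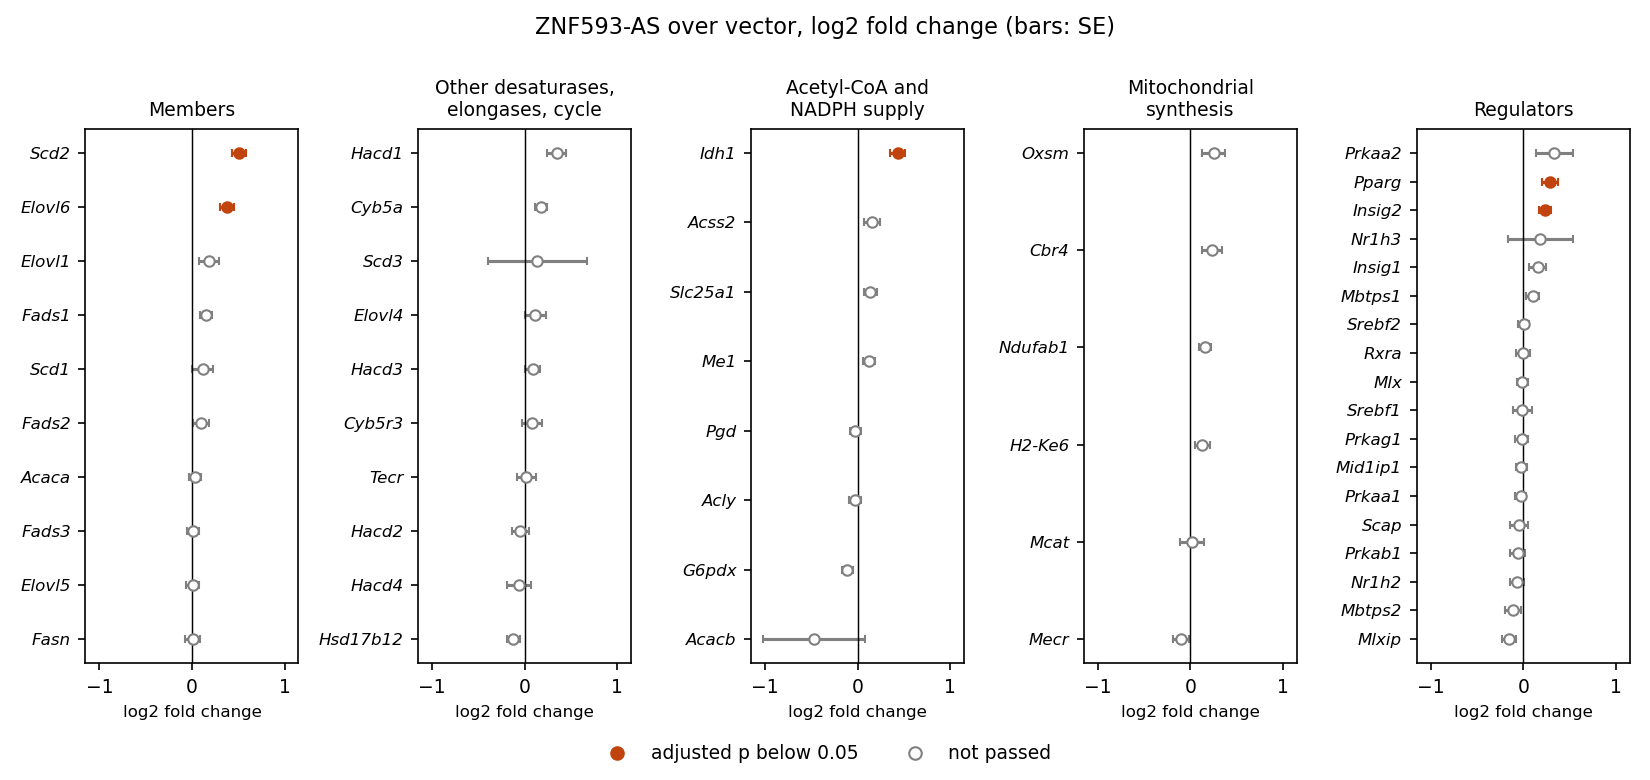
log2 fold change of ZNF593-AS over vector with SE for the 10 genes and for the tested genes of the 4 other pathway lists; filled orange points have an edgeR adjusted p below 0.05. Scd2, Elovl6, Idh1, Insig2 and Pparg are filled, all to the right of 0.

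Fat and liver are tissues in which these enzymes are abundant, so markers of their cells were read in the same libraries. Of 8 adipocyte markers 2 reached a mean of 1 CPM, Pparg and Fabp4, and both rose. The summed level of the 8 was 16.6 to 18.0 CPM in ZNF593-AS libraries and 12.5 to 13.2 CPM in vector libraries. The defining markers were at or near 0: Cfd and Retn had no count in any library, and Adipoq averaged 0.00763 CPM in ZNF593-AS libraries and 0 CPM in vector libraries. Of 6 hepatocyte markers 5 reached 1 CPM and none passed, with sums of 24.3 to 35.2 CPM in ZNF593-AS libraries and 24.9 to 26.7 CPM in vector libraries. Alb, the albumin gene, stood at 12.3 ± 2.27 CPM in ZNF593-AS libraries and 11.4 ± 0.331 CPM in vector libraries (SD, n = 3 each). The part of such RNA in the result was not tested. Of 8 fibroblast markers Col1a1, Col1a2 and Col3a1 fell and Pdgfra rose, with sums of 2333 to 2466 CPM in ZNF593-AS libraries and 2487 to 2685 CPM in vector libraries. Most of these sums came from Vim, which overlapped between the groups and did not pass. Vim averaged 1969 CPM in ZNF593-AS libraries and 2077 CPM in vector libraries. Of 6 macrophage markers Cd68 rose, at 6.28 CPM in ZNF593-AS libraries and 4.55 CPM in vector libraries. Csf1r and Lyz2 did not pass, with log2 fold changes of -0.03 and -0.53, and Adgre1, Itgam and C1qa were too low to test. The macrophage markers summed to 8.53 to 9.88 CPM in ZNF593-AS libraries and 7.05 to 8.24 CPM in vector libraries, mostly from Cd68. Their part in the result was not tested, and in RNA from whole cultures a change in the share of cells and in RNA per cell cannot be told apart.

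The genes whose level followed Scd2 most closely over the 6 libraries, among 7670 genes averaging 10 CPM or more, were Itgb3, Marveld1 and Polr3g. Their Pearson correlations of log2 CPM with Scd2 were 0.999, 0.996 and 0.99, given as a description only, since the 6 points include the group difference and share their libraries. All 3 rose, with log2 fold changes of 0.65 for Itgb3, an integrin subunit, 0.35 for Marveld1 and 0.67 for Polr3g, a subunit of RNA polymerase III (edgeR adjusted p = 0.000139, 0.00792 and 2.7e-05). In all, 44 of the genes compared had a correlation above 0.95.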

How the data were processed

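The deposited file was a table of whole-number read counts per gene in 6 libraries, not normalized, with the exon length and GRCm38 coordinates of each gene, per the file headers. Per the submitters' processing notes, which give no roles, the tools were TopHat2, Bowtie2, cutadapt 1.2.1 and CASAVA, with GRCm38 as build. How reads were assigned to genes, by strand or at overlaps, is not stated. Between 2160 and 2359 genes per library had a count of 2 and between 365 and 492 a count of 1, an excess of even counts that counting both mates would give. Exons of 5 of the 10 genes matched GENCODE M21 exactly, and those of the 5 on chromosome 19 differed.

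Libraries were grouped by title. After filterByExpr (minimum count 10, minimum total 15) and TMM scaling, ZNF593-AS was tested over vector with edgeR 4.0.16 in R 4.3.3 (quasi-likelihood F test, robust, 2-sided, Benjamini-Hochberg adjustment over 16473 genes, threshold 0.05). The biological coefficient of variation was 7.69%. CPM use the TMM-scaled library size. SE is the log2 fold change divided by the square root of F. DESeq2 1.42.0, limma-voom 3.58.1, other scalings and filters, halved counts, a replicate block and leaving out each library were tried as alternatives. The procedure was tested on simulated data. The genes, lists, tests and naming rule (all 10 genes, called or smallest-p genes of each list, neighbours within 5 kb, and the 3 genes most like Scd2) were chosen with earlier results of these data known. Gm and Rik genes were left out of the last. Acly, Srebf1 and Srebf2 fall outside that rule and were named after their values were seen. Of the neighbours within 5 kb, only Mir5114 and Cdc20 were described above. Those left out include Tada2a beside Acaca (log2 fold change 0.03, edgeR adjusted p = 0.827) and Gm10143 beside Fads1 (-0.20, edgeR adjusted p = 0.287). Hsd17b8 was read as H2-Ke6, its symbol in the table. Sequences are those of RefSeq (GRCm38.p6) and GENCODE M21 (GRCm38).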

Additional observations from a re-analysis of the deposited data

How the results depend on the processing

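Scd2 and Elovl6 rose under all 14 other settings of scaling, filter, test, block or left-out library, with log2 fold changes of 0.43 to 0.60 for Scd2 (adjusted p 8.19e-12 to 0.0015) and 0.33 to 0.47 for Elovl6 (adjusted p 4.48e-05 to 0.0201). With library totals in place of TMM, Fads1 passed (0.24, adjusted p = 0.0233), genes called higher numbered 1284 and other pathway genes called higher numbered 7. With no filter on low counts, genes called higher numbered 561. Leaving out each library in turn gave 138 to 394 genes called higher and 1 to 2 other pathway genes. It moved the log2 fold change of Elovl1 between 0.05 and 0.26 and that of Fads2 between 0.0037 and 0.157. It also turned the sign of values that did not pass: log2 fold changes ran from -0.018 to 0.229 for Scd1, -0.033 to 0.047 for Fads3, -0.031 to 0.048 for Elovl5, -0.0895 to 0.0695 for Fasn and -0.020 to 0.065 for Acaca, and the difference in log2 ratio of Fads1 to Fads2 from -0.010 to 0.12. ZNF593-AS replicate 1 alone against vector, added after seeing the data because of the treatment fields, gave 1 of the 10 genes higher, Scd2, with Elovl6 at 0.37 (adjusted p = 0.0625), 45 genes higher, 630 lower and 0 other pathway genes higher. It assumes that the lone library varies like the vector group. The cause of these shifts was not tested, beyond the fewer libraries in those that leave some out.

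Same-numbered libraries did not deviate together (correlations of -0.03, -0.03 and 0.05), so no pairing by number was seen. The labels do not say how the replicates were made, and such correlations cannot exclude a weaker pairing. With the replicate block the 10 genes gave 2 higher and 0 lower, Scd2 0.52 and Elovl6 0.38, and other pathway genes called higher numbered 1, against 3 without it. With 3 libraries a group, exact tests of single ratios cannot go below 0.1.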
